A study of Mus musculus with 18 samples.

Results

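The genes described here are 10 AP-1 and immediate early genes of the mouse. Of these, 7 encode the Fos and Jun subunits of the transcription factor AP-1 (Fos, Fosb, Fosl1, Fosl2, Jun, Junb and Jund). The other 3 are Atf3, Egr1 and Ier2. They were chosen by symbol, and all 10 were among the 20703 genes with an expression value. Their mRNA was measured by RNA-seq in 18 libraries of E14 mESCs, a mouse embryonic stem cell line, collected at day 0, 2 and 4 of differentiation. The design text of the study names the comparison of WT with Nsd1 KO cells over these 3 days as its purpose.

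Day 0 cells grew in serum medium with LIF on mouse embryonic fibroblast feeders (MEFs), and differentiation was started by withdrawing LIF and the feeders, so the day and the change of medium, dish and feeders cannot be told apart. Each of 3 lines (WT, KO-1 and KO-2) gave 2 biological replicates per day. KO-1 and KO-2 are each a single clone with a homozygous deletion of exon 5 of Nsd1, a histone H3K36 methyltransferase gene, made with Cas9 in E14 cells whose Nsd1 carried a 3×Flag-P2A-NeoR cassette. Whether the WT libraries carried that cassette is not given in the labels. Both clones are called KO here, so a KO group holds 4 libraries from 2 clones and a WT group 2 libraries.

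AP-1 is a dimer of basic leucine zipper proteins. Jun proteins can pair with themselves or with a Fos protein, whereas Fos proteins need a Jun partner, and the dimers bind the TRE motif. Immediate early genes are transcribed within minutes of a growth factor, cytokine or stress signal, without new protein synthesis, through pre-existing factors such as SRF with its ETS partners and CREB, and their mRNAs are short-lived. In mESCs, LIF signals through STAT3 and the MAPK pathway, and serum and FGF through the MAPK pathway, while motifs for AP-1 are common in enhancers of differentiating cells.

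Because CREB and the ATF proteins bind the letters TGACG, the start of the CRE motif, the promoters of the 10 genes were searched for it. RefSeq promoter windows on GRCm38.p6 (250 bases before and 50 after a gene's start, 300 in all) were found for 7 of the 10 genes, and not for Fosl1, Egr1 and Ier2. The 140 bases before the start are shown for Fos (chr12:85473750-85473889, + strand), Fosb (chr7:19310046-19310185, − strand) and Junb (chr8:84978749-84978888, − strand), whose mRNA was lower at day 2 than at day 0, and for Jun (chr4:95052223-95052362, − strand), whose mRNA did not pass the test there. All run 5′ to 3′ in the direction of the gene, with TGACG in capitals.
Fos: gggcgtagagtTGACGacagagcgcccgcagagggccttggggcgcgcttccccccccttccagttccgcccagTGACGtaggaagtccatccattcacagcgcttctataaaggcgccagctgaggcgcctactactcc
Fosb: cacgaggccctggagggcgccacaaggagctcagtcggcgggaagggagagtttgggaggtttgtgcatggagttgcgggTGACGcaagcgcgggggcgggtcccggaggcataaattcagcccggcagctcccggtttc
Junb: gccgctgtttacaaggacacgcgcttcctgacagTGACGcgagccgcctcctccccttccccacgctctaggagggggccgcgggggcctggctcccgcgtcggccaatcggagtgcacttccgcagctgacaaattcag
Jun: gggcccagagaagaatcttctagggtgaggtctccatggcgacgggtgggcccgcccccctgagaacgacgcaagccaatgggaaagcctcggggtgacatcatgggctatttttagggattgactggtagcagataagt

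Searched on both strands of the 300 bases, TGACG occurred in 4 of the 7 windows, against 20.8% of all 32851 windows in the table. Fos held it 2 times, from −129 to −125 and from −66 to −62 relative to the start. Fosb held it from −60 to −56, Junb from −106 to −102, and Atf3, whose window is not printed, on the opposite strand from −7 to −3. Atf3 was not called lower at day 2 than at day 0 in WT (VST difference 0.04, adjusted p = 0.669), whereas Fosl2, whose window held no TGACG, was called lower in KO (−0.59, adjusted p = 8.73e-10) and, by limma-voom, in both genotypes. Windows with and without TGACG were thus found both among the genes that fell and among those that did not. The full CRE, TGACGTCA, which contains TGACG, was in 0 of the 7 windows (1.79% of all), and the TRE motif of AP-1, TGACTCA, in 0 of the 7 (5.20% of all). TATAAA was in the windows of Fos (−33 to −28) and Junb (1 to 6) and in 13.6% of all windows, and the CArG box bound by SRF was in 0 of the 7 (1.63% of all). These matches describe letters in a short window and not bound sites.

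The libraries held between 9309874 and 23921193 counts on genes, with a median of 15721348, and the WT day 2 libraries were the shallowest with 9309874 and 9356867. The deposited values are on the log2 scale of the variance stabilizing transformation (VST) of DESeq2, which compresses differences at low counts. They were tested with limma, and a gene was called at an adjusted p below 0.01 with a VST difference beyond 0.58 in either direction. The transformation was also inverted to the counts, which are given as normalized counts (divided by the size factor of the library) and tested with limma-voom. The fold changes of limma-voom are not compressed. All p values below are Benjamini-Hochberg adjusted over 20703 genes. The labels call the replicates biological and do not say how they were cultured, so the p values measure the spread between these libraries.

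Nsd1, the targeted gene, checked the labels. Its normalized count was 3517 ± 202 in WT (SD, n = 2) and 718 ± 85.4 in KO (SD, n = 4) at day 0, 3059 ± 403 and 942 ± 71.2 at day 2, and 2268 ± 222 and 818 ± 236 at day 4. Every KO library lay below every WT library of its day. Reads from exons outside the deletion still count, so these levels do not measure functional transcript.

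The 10 genes differed widely in level at day 0. Egr1, a zinc finger transcription factor, was the most abundant in WT with 1258 ± 35.4 normalized counts per kb of exon (SD, n = 2), followed by Ier2, a regulator of transcription, with 945 ± 10.3 and Fos with 932 ± 10.1. Junb (471 ± 34.3), Jund (354 ± 21.9), Fosb (207 ± 6.66) and Jun (193 ± 1.35) were intermediate on the same per kb scale. Atf3 (40.4 ± 4.27) and Fosl2 (22.5 ± 0.17) were low, and Fosl1 was close to the floor with 3.57 ± 0.96. Fosl1 had between 2 and 45 counts in every library, and 57.2% of its exon bases overlap Ccdc85b on the opposite strand, which the library kit does not tell apart.

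**Figure D1:**
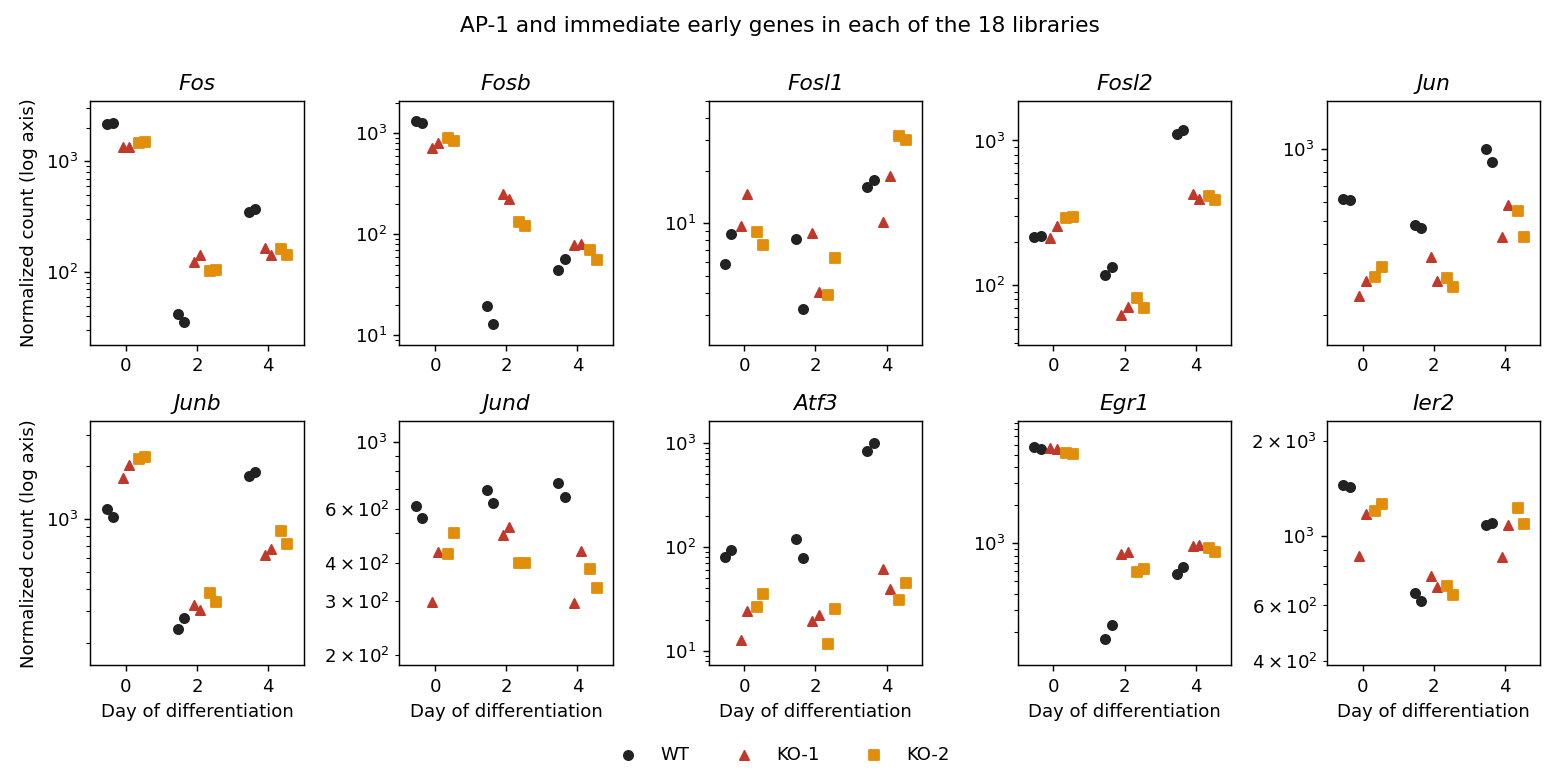
Normalized count (log axis, scaled per panel) of each gene in every library against the day of differentiation, with WT as black circles, KO-1 as red triangles and KO-2 as orange squares, 2 libraries each per day. Fos, Fosb and Egr1 were highest at day 0 and lowest in WT at day 2, whereas Atf3 was high only in WT at day 4, at 840.2 and 1012.

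Withdrawal of LIF and feeders in WT was followed by a steep decline of Fos, Fosb, Junb, Egr1 and Ier2 at day 2, which are the 5 of 10 genes called lower than at day 0, against 4.02% of all genes. At day 4, 5 of the 10 were called higher than at day 2 (Fos, Fosl2, Junb, Atf3 and Egr1), against 5.69% of all genes. In KO cells 5 of 10 fell by day 2 (Fos, Fosb, Fosl2, Junb and Egr1), against 1.77% of all genes, and from day 2 to day 4 only Fosl2 rose, 1 of 10 against 0.923%. With limma-voom the same 6 of 10 (the 4 genes lower in both genotypes above, Fosl2 and Ier2) were lower at day 2 in WT (10.03% of all genes) and in KO (9.20%), 7 of 10 were higher in WT at day 4 (12.2%), and 5 higher and 1 lower were called in KO at day 4 (5.59% and 4.75%). Without either KO-2 library of day 0, or without KO-1 replicate 1 of day 2, Fosl2 was no longer called lower in KO at day 2 (4 of 10). Without KO-2 replicate 1 of day 2 or either KO-1 library of day 4, Junb was also called higher in KO at day 4 than at day 2 (2 of 10). Successive comparisons share the day 2 libraries. Marker genes of mESCs and of the feeders' cell type moved over the same step. From day 0 to day 2, 8 of 10 mESC markers fell in WT and 7 in KO, and of 9 fibroblast markers 3 fell in WT (Col1a1, Col1a2 and Pdgfrb) and 6 in KO, with 0 of either list called higher. Their part in the decline was not tested.

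Comparing KO with WT at each day, the genes followed different courses. At day 0, 1 of 10 was higher in KO (Junb), against 1.73% of all genes, and 0 were lower, against 0.879%. At day 2, 2 were higher (Fosb and Egr1), against 4.01%, and 0 lower, against 2.37%. At day 4, 3 were lower (Fosl2, Junb and Atf3), against 3.91%, and 0 higher, against 3.67%. At an unadjusted p below 0.05, in either direction, 7, 8 and 7 of the 10 differed on these days, as did 39.4%, 52.3% and 44.2% of all genes. The median VST difference over the 10 genes was −0.26, 0.04 and −0.49 at day 0, 2 and 4, and that over all genes was −0.0032, −0.016 and 0.

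With limma-voom the counts were larger. At day 0, 1 was higher (6.43% of all genes) and 4 lower (6.86%), the latter being Fos, Fosb, Jun and Atf3. At day 2, Fos, Fosb and Egr1 were higher (10.3%) and Fosl2, Jun and Atf3 lower (13.6%). At day 4, Egr1 was higher (10.9%) and 6 were lower (13.0%), namely Fos, Fosl2, Jun, Junb, Jund and Atf3. The median of all genes under limma-voom was −0.14 for KO versus WT at day 2 and −0.17 for WT day 4 versus day 2, so fold changes of these comparisons are to be read against those shifts.

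**Figure D2:**
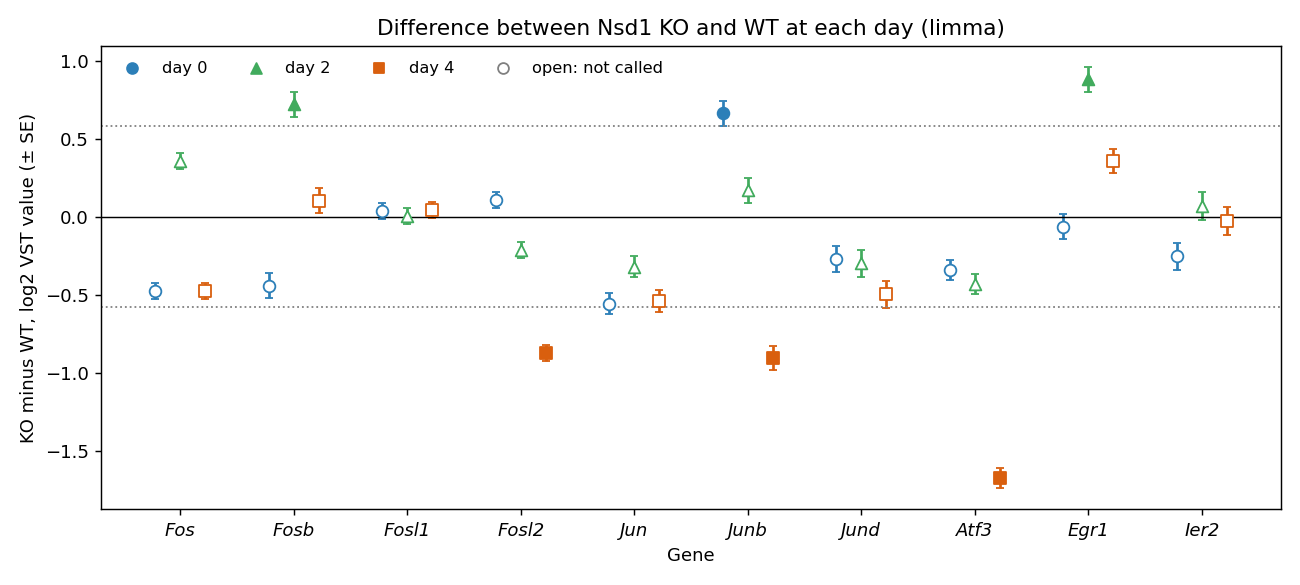
Difference between KO (n = 4 libraries) and WT (n = 2) in log2 VST value for each gene at day 0 (blue circles), day 2 (green triangles) and day 4 (orange squares), with bars for the SE of limma and dotted lines at the minimum difference of 0.58. Filled symbols are called, and the lowest is Atf3 at day 4 with −1.68.

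Fos, the founding Fos protein and a classical marker of recent stimulation, had normalized counts of 2176 and 2209.8 in WT at day 0 and of 1355 and 1353 in KO-1 and 1457 and 1494 in KO-2. At day 2 the WT libraries had 42.4 and 35.7, KO-1 124 and 144, and KO-2 103 and 104. By day 4 they were 346 and 371 in WT, 167 and 143 in KO-1 and 160.3 and 144 in KO-2. Fos was thus lower in all KO libraries than in WT at days 0 and 4 and higher in all of them at day 2, and the groups did not overlap on any day. The mean of the KO libraries was 0.645, 3.05 and 0.428 times that of WT at day 0, 2 and 4. From day 0 to day 2 the mean declined 56.2-fold in WT and 11.9-fold in KO. In VST values KO differed from WT by −0.48 ± 0.05 (SE, adjusted p = 5.25e-07), 0.36 ± 0.05 (adjusted p = 9.41e-06) and −0.48 ± 0.05 (adjusted p = 1.63e-07), none past 0.58, and by limma-voom the log2 fold changes were −0.63, 1.57 and −1.24, called on all 3 days.

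Fosb, a Fos protein with a transactivation domain, was also highest at day 0. WT had 1323 and 1265 normalized counts at day 0, KO-1 716 and 807, and KO-2 894 and 845. At day 2 these were 19.6 and 13.0 in WT, 254 and 224 in KO-1 and 133 and 121 in KO-2, and at day 4 they were 44.3 and 56.8, 78.9 and 80.1, and 69.3 and 55.6. The groups were apart at days 0 and 2, in opposite directions, and overlapped at day 4. The mean at day 2 was 11.2 times as high in KO as in WT, where it rested on 8 and 12 counts. Fosb was called higher in KO at day 2 (VST difference 0.72 ± 0.08, adjusted p = 4.55e-07, limma-voom log2 fold change 3.37 ± 0.65). With KO-2 alone the VST difference was 0.56 ± 0.05 (adjusted p = 1.30e-08), under the minimum. Its differences at days 0 and 4 were −0.44 ± 0.08 (adjusted p = 2.91e-04) and 0.10 ± 0.08 (adjusted p = 0.369).

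Fosl2 (Fra-2), a Fos protein without a strong transactivation domain, rose late. At day 0 its normalized counts were 216 and 219 in WT, 214 and 257 in KO-1 and 291 and 297 in KO-2, where the groups overlapped. At day 2, 117 and 133 in WT stood against 62.4 and 71.2 in KO-1 and 81.1 and 69.5 in KO-2. At day 4 WT reached 1107 and 1179, whereas KO-1 had 425 and 393 and KO-2 412 and 388. KO was below WT in all libraries at days 2 and 4. The mean rose 9.14-fold from day 2 to day 4 in WT and 5.69-fold in KO, called in both. At day 4 Fosl2 was lower in KO, with a mean 2.83 times as high in WT, a VST difference of −0.88 ± 0.05 (adjusted p = 2.09e-11) and a limma-voom log2 fold change of −1.51 ± 0.09.

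Fosl1 (Fra-1), a further Fos protein of that kind, had between 3.24 and 31.5 normalized counts in the 18 libraries. Its groups overlapped on every day, and its VST differences between KO and WT lay between 0.0032 and 0.04. At these counts no difference between KO and WT was detectable on any day. Limma-voom called it higher in KO at day 4 than at day 2 (log2 fold change 1.90 ± 0.44, adjusted p = 0.0027), which limma on VST values did not.

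**Figure D3:**
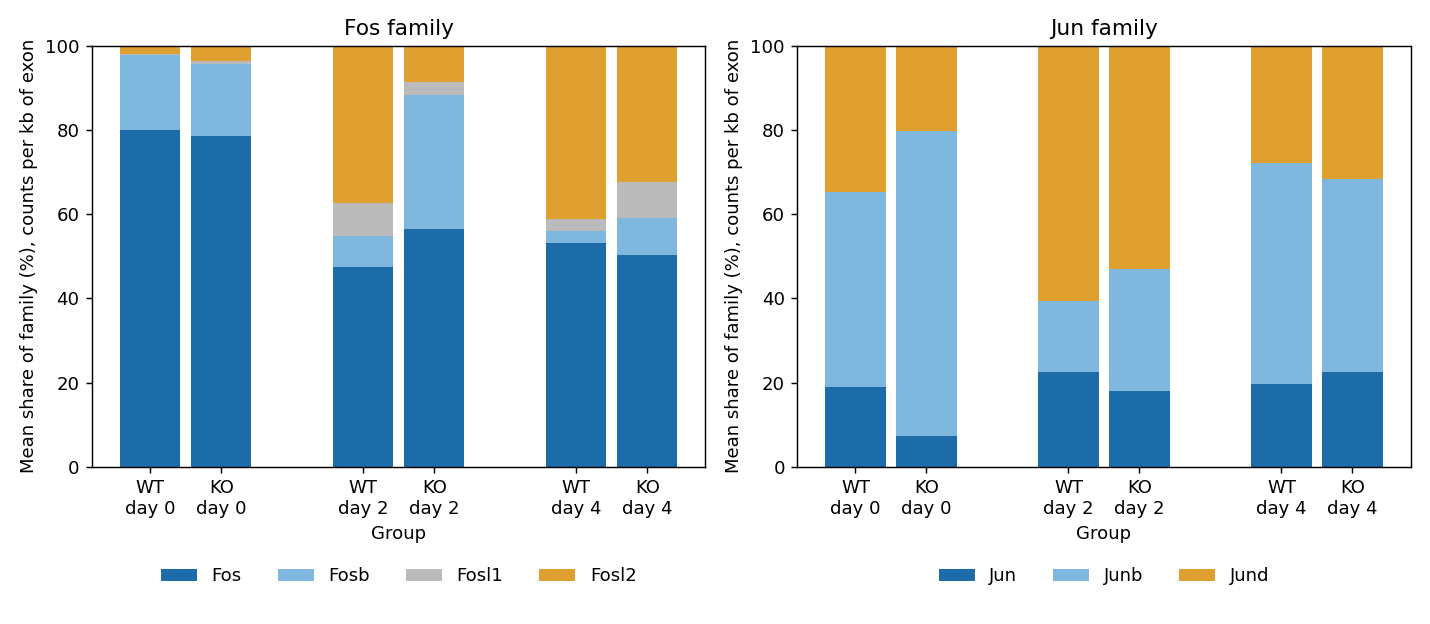
Mean share of each gene (%) in the summed normalized counts per kb of exon of its family, for the Fos family (left) and the Jun family (right), in WT (n = 2) and KO (n = 4) at each day. Fosl2 took 37.3% of the Fos family in WT at day 2 and 8.48% in KO, and Junb took 46.2% of the Jun family in WT at day 0 and 72.6% in KO.

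Summed per kb of exon, the Fos family had 1166 ± 4.51 in WT (SD, n = 2) and 765 ± 43.1 in KO (SD, n = 4) at day 0, 34.9 ± 3.33 and 89.99 ± 17.7 at day 2, and 287 ± 14.8 and 130 ± 6.55 at day 4. Fos made up 80.0% of it in WT at day 0 and 78.7% in KO. At day 2 Fosb was 7.39% of the family in WT and 31.8% in KO (26.2 to 39.0% in the KO libraries), whereas Fosl2 was 37.3% in WT and 8.48% in KO (6.20 to 11.1%). The plot of family shares shows these as the bars at day 2, in which the Fosb and Fosl2 segments change places between the genotypes. At day 4 Fosl2 was 41.2% in WT and 32.3% in KO. These shares depend on exon lengths taken from another annotation than the one used for counting. The length of Fosl1 includes the 57.2% of its exon bases that overlap Ccdc85b, and the effect on the shares was not tested.

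Jun, the founding Jun protein, was lower in KO on all 3 days without passing the minimum difference. Its normalized counts at day 0 were 619 and 613 in WT, 241 and 278 in KO-1 and 290.1 and 318 in KO-2. They were 477 and 464, 350.1 and 279, and 287 and 263 at day 2, and 1000.2 and 879, 426 and 583, and 549 and 427 at day 4. No KO library reached a WT library of its day. Jun differed by −0.56 ± 0.07 (adjusted p = 3.87e-06), −0.32 ± 0.07 (adjusted p = 8.43e-04) and −0.54 ± 0.07 (adjusted p = 2.05e-06) in VST values, and was called lower by limma-voom on each day, with log2 fold changes of −1.12, −0.68 and −0.90. An antisense gene, Junos, overlaps 7.28% of its exon bases and had a mean of at most 7.32 normalized counts in any group.

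Junb, which counters Jun at some promoters, turned direction between days. At day 0 WT had 1139 and 1027 normalized counts, KO-1 1710.4 and 2037, and KO-2 2194 and 2238. At day 2 these were 238 and 276, 326 and 305, and 382 and 339. At day 4 they were 1759 and 1859 in WT, 625 and 680.0 in KO-1 and 859.6 and 727 in KO-2. All KO libraries were above WT at days 0 and 2 and all were below at day 4, with no overlap. Junb was called higher in KO at day 0 (VST difference 0.66 ± 0.08, adjusted p = 2.19e-06, mean 1.89 times that of WT) and lower at day 4 (−0.91 ± 0.08, adjusted p = 8.47e-09, mean 0.399 times that of WT), and did not pass at day 2 (0.17 ± 0.08, adjusted p = 0.0886). With KO-1 alone the VST difference at day 0 was 0.57 ± 0.07 (adjusted p = 2.97e-05), under the minimum. From day 2 to day 4 its mean rose 7.05-fold in WT, and it was 2.14 times as high at day 4 in KO, where the VST difference of 0.57 was under the minimum. Prdx2, on the opposite strand, overlaps 7.52% of the exon bases of Junb, and its mean normalized count at day 0, 2 and 4 was 2534, 4094 and 4044 in WT and 2158, 2837 and 3316 in KO.

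Jund, the Jun protein least dependent on stimulation, was between 564 and 729.6 normalized counts in the WT libraries over the 3 days and between 295 and 527 in the KO libraries. KO was below WT on each day without overlap. The VST differences were −0.27 ± 0.09 (adjusted p = 0.0208), −0.30 ± 0.09 (adjusted p = 0.00727) and −0.50 ± 0.09 (adjusted p = 7.71e-05), none beyond 0.58, and limma-voom called it at day 4 with −0.92 ± 0.15. Its exons overlap a gene on the opposite strand, Gm11175, over 52.6% of their bases, and that gene is not in the table.

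The Jun family summed to 1017 ± 57.6 normalized counts per kb in WT (SD, n = 2) and 1226 ± 163 in KO (SD, n = 4) at day 0, to 657 ± 19.2 and 512 ± 35.7 at day 2, and to 1497 ± 26.4 and 687 ± 87.9 at day 4. Jun took 19.0% of it in WT at day 0 and 7.22% in KO, and Jund 34.7% and 20.2%, so that Junb held 46.2% and 72.6%. At day 2 Jund was the largest share in both genotypes, with 60.5% and 53.1%. Its length includes the 52.6% of its exon bases that overlap Gm11175, and the effect on the shares was not tested. At day 4 the shares of Junb were 52.6% in WT and 45.8% in KO.

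Atf3, a bZIP repressor induced by stress that can pair with Jun proteins, had the largest difference of the 10 genes. At day 0 it had 80.5 and 93.5 normalized counts in WT, 12.8 and 24.6 in KO-1 and 26.6 and 35.5 in KO-2. At day 2 these were 121 and 77.8, 19.5 and 22.4, and 11.7 and 25.3. At day 4 WT rose to 840.2 and 1012, while KO-1 had 62.0 and 39.7 and KO-2 30.8 and 45.6. The KO libraries were below both WT libraries on every day. The WT mean was 3.496, 5.03 and 20.8 times that of KO at day 0, 2 and 4. The mean rose 9.33-fold in WT from day 2 to day 4 and was 2.26 times as high at day 4 in KO, where it did not pass (VST difference 0.17, adjusted p = 0.0176). At day 4 the VST difference between KO and WT was −1.68 ± 0.06 (adjusted p = 1.73e-14) and the limma-voom log2 fold change −4.48 ± 0.20. At days 0 and 2 the VST differences were −0.34 and −0.43, with limma-voom log2 fold changes of −1.76 and −2.37, called by limma-voom and not by limma on VST values.

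Egr1, which is switched on by MAPK signalling through SRF, was the most abundant of the 10 genes at day 0, with 5755 and 5530.2 normalized counts in WT, 5701 and 5518 in KO-1 and 5178 and 5105 in KO-2. At day 2 it was 174 and 225 in WT, 827 and 851 in KO-1 and 598 and 627 in KO-2. At day 4 it was 578 and 648 in WT, 956 and 966 in KO-1 and 913 and 858 in KO-2. The groups overlapped at day 0 (VST difference −0.06 ± 0.08, adjusted p = 0.596), and every KO library was above WT at days 2 and 4. The mean declined 28.2-fold in WT and 7.41-fold in KO from day 0 to day 2. Egr1 was called higher in KO at day 2, with a mean 3.63 times that of WT, a VST difference of 0.88 ± 0.08 (adjusted p = 1.78e-08) and a limma-voom log2 fold change of 1.84 ± 0.21. At day 4 the VST difference was 0.36 ± 0.08 (adjusted p = 9.91e-04), under the minimum, and limma-voom called it with 0.58 ± 0.12.

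Ier2 was not called between the genotypes on any day. WT had 1449 and 1427 normalized counts at day 0 and KO between 864 and 1268, without overlap, and the ranges overlapped at day 2 (619 and 658 in WT, 647 to 744 in KO) and at day 4 (1086 and 1096, 857 to 1228). The VST differences were −0.25 ± 0.09 (adjusted p = 0.0326), 0.07 ± 0.09 (adjusted p = 0.558) and −0.03 ± 0.09 (adjusted p = 0.844). Its decline from day 0 to day 2 in WT, by a VST difference of −0.76 ± 0.10 (adjusted p = 4.53e-06), was called.

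Whether the difference between KO and WT itself changed with time was tested as an interaction. Against day 0, the difference at day 2 was more positive for 3 of 10 genes, Fos (0.84 ± 0.07, adjusted p = 1.02e-07), Fosb (1.16 ± 0.11, adjusted p = 5.72e-07) and Egr1 (0.94 ± 0.11, adjusted p = 4.96e-06), while 2.08% of all genes were called in that direction. Against day 0, the difference at day 4 was more negative for another 3, Fosl2 (−0.98 ± 0.07, adjusted p = 2.03e-09), Junb (−1.57 ± 0.11, adjusted p = 1.06e-09) and Atf3 (−1.33 ± 0.09, adjusted p = 4.66e-10), while 4.13% of all genes were. Both comparisons share the day 0 libraries. With limma-voom the day 2 interaction was called for the same 3 genes upward (4.09% of all genes) and for Fosl2 downward (3.25%), and the day 4 interaction for Egr1 upward (6.89%) and for Fos, Fosl2, Junb and Atf3 downward (8.01%). For Fos at day 4 the size depended on the scale, with an interaction of 0.00039 in VST values and −0.61 by limma-voom.

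Between the clones, 0 of the 10 genes were called by limma at any day, while 0.0290%, 0.0435% and 0.251% of all genes were at day 0, 2 and 4. At an unadjusted p below 0.05, 5, 4 and 3 of them differed, and 14.8%, 12.3% and 25.3% of all genes. Fosb at day 2 came closest, with 254 and 224 normalized counts in KO-1 against 133 and 121 in KO-2 (VST difference 0.31 ± 0.05, adjusted p = 0.00482). Limma-voom called it (log2 fold change 0.90 ± 0.16) and 0.232% of all genes at day 2, and called 0 of the 10 at days 0 and 4, when 0.159% and 2.23% of all genes passed. Egr1 was also higher in both KO-1 libraries than in both KO-2 libraries at day 2 (adjusted p = 0.0206). The level of Nsd1 itself differed between the clones at day 4 by a VST difference of 0.41 ± 0.08 (adjusted p = 0.00294).

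Across the 18 libraries the 10 genes fell into patterns, described here by Pearson's r of their VST values over libraries that share 6 group means. Fos, Fosb and Egr1 were alike (r = 0.933 for Fos with Fosb, 0.958 for Fos with Egr1 and 0.956 for Fosb with Egr1). Atf3 was most like Jun (r = 0.840) and Fosl2 (r = 0.790) and was unlike Egr1 (r = −0.280). Among 11598 genes with a mean of at least 50 counts, the genes closest to Fos were Tbx3 (r = 0.997) and Sec14l1 (0.986), those closest to Fosb were Prdm14 (0.984) and Mib2 (0.982), and those closest to Egr1 were Nid1 (0.979) and Serpinb6c (0.976). Slc16a10 (0.989) and Krt19 (0.989) were closest to Atf3. The mean normalized count of Tbx3 at day 0, 2 and 4 was 5033, 91.0 and 628 in WT and 3239, 281 and 319.8 in KO, and that of Krt19 was 318, 193 and 7038 in WT and 35.1, 35.5 and 82.7 in KO. Bmp1 (0.975) and Sat1 (0.972) were closest to Fosl2, Thbs1 (0.983) and Axl (0.969) to Junb, Ergic1 (0.965) and Zfp523 (0.957) to Jun, Cbr1 (0.925) and Ttc12 (0.900) to Jund, and Tada3 (0.920) and Abat (0.899) to Ier2.

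**Figure D4:**
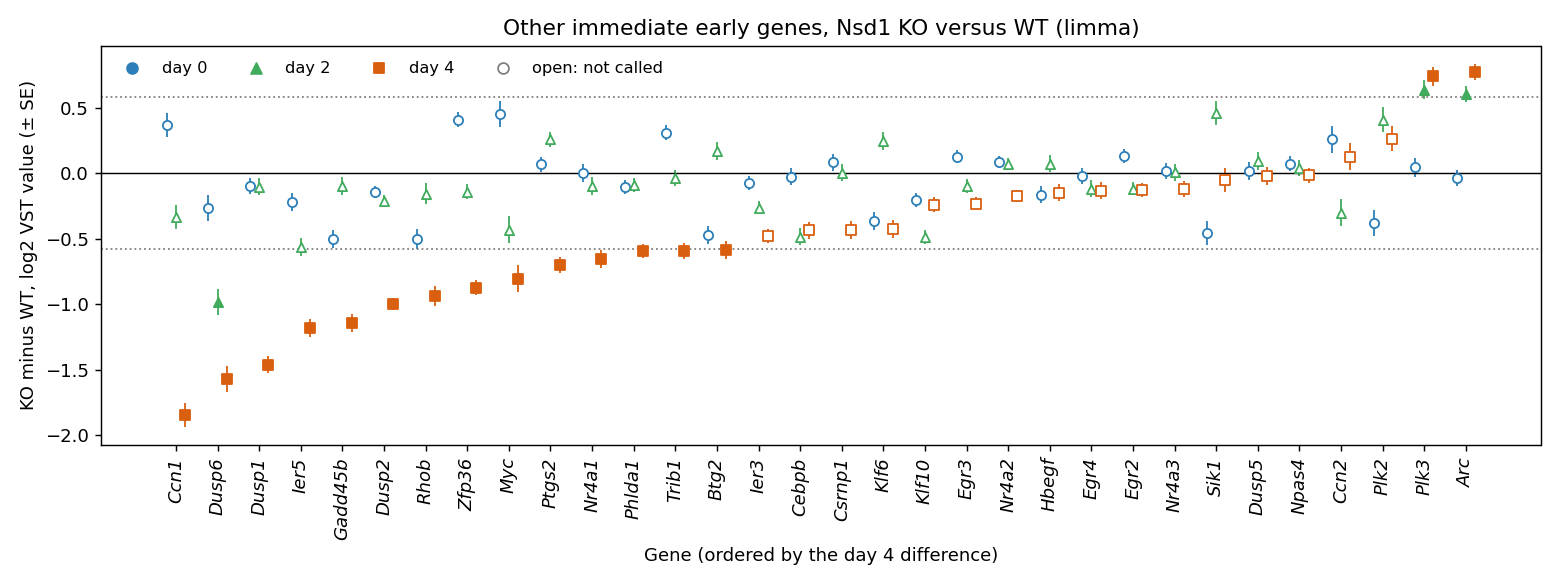
Difference between KO (n = 4 libraries) and WT (n = 2) in log2 VST value, with bars for the SE of limma, for 32 other immediate early genes at day 0 (blue circles), day 2 (green triangles) and day 4 (orange squares), ordered by day 4. Filled symbols mark the called genes, of which there were 0 at day 0, 3 at day 2 and 16 at day 4, 14 of them lower in KO.

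Most of the other immediate early genes that were called differed at day 4. Of 32, 0 were called between KO and WT at day 0, 2 were higher and 1 lower in KO at day 2, and 2 were higher and 14 lower at day 4, with a median VST difference of −0.02, −0.10 and −0.43, beside −0.0032, −0.016 and 0 over all genes. The shares of all genes called higher and lower were 1.73% and 0.879% at day 0, 4.01% and 2.37% at day 2, and 3.67% and 3.91% at day 4. With limma-voom 3 of the 32 were higher and 3 lower at day 0 (6.43% and 6.86% of all genes), 4 and 7 at day 2 (10.3% and 13.6%), and 2 and 19 at day 4 (10.9% and 13.0%). In VST values the largest falls at day 4 were in Ccn1, a matricellular protein (6816 ± 132 normalized counts in WT and 1487 ± 258 in KO), Dusp6, a phosphatase of ERK induced by it (7419 ± 42.5 and 2121 ± 412), and Dusp1, a phosphatase of MAPKs (2206 ± 74.3 and 477 ± 72.5). By the ratio of normalized counts the order was another, with Dusp2, a nuclear phosphatase of MAPKs, at 464 ± 7.71 in WT and 64.3 ± 10.96 in KO, further apart than these 3. Plk3, a stress kinase, and Arc, a synaptic immediate early gene, were higher in KO at days 2 and 4, Arc with 159 ± 19.0 in WT and 440.4 ± 38.2 in KO at day 2 and 161 ± 11.5 and 557 ± 69.2 at day 4. Dusp6 was the gene lower at day 2, with 2106 ± 90.7 in WT and 802 ± 124 in KO. From day 2 to day 4, 16 of the 32 were called higher in WT (5.69% of all genes) and 3 in KO (0.923%), and with limma-voom 21 (12.2%) and 11 (5.59%).

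Of 13 further bZIP genes, 0 were called at day 0 by limma and 2 were lower by limma-voom. Atf4, the effector of the integrated stress response, was lower in KO at day 2 (1782 ± 195 normalized counts in WT and 273 ± 75.4 in KO) and at day 4 (1351 ± 97.6 and 326 ± 52.0), and at day 0 had 1625 ± 119 and 975 ± 148, called lower by limma-voom and not by limma on VST values. At day 4 Maff was also lower (998 ± 23.0 and 326 ± 86.0). With limma-voom 1 of the 13 was higher and 4 lower at day 2, and 2 were higher and 5 lower at day 4. Among 19 upstream genes, the kinases of the MAPK modules and the factors SRF, ETS and CREB, 0 were called on any day by limma. Limma-voom called 2 higher and 1 lower at day 0, 3 and 1 at day 2, and 1 and 0 at day 4. In VST values the largest of their differences were those of Mapk14 (p38α) at days 0 and 2 (0.46 and 0.53, with 2114 ± 41.5 normalized counts in WT and 3134 ± 166 in KO at day 0) and of Map2k1 (MEK1) at day 4 (−0.44, with 3120 ± 66.7 and 2151 ± 122), none past the minimum. The scarce Mapk10 (JNK3), at 26.8 ± 3.55 in WT and 6.54 ± 1.93 in KO at day 2, was called lower by limma-voom, and at day 4, at 0.63 ± 0.89 and 17.04 ± 4.81, it was the 1 called higher. Of 12 genes known as AP-1 targets, 0 were called at day 0, 3 were higher at day 2 (Spp1, Vim and Ccnd1), and 1 was higher (Spp1) and 2 lower (Vim and Cd44) at day 4. With limma-voom 3 of the 12 were higher at day 0, 5 were higher at day 2, and 2 were higher and 4 lower at day 4. Beside these 3 lists, the shares of all genes called higher and lower by limma were 1.73% and 0.879% at day 0, 4.01% and 2.37% at day 2, and 3.67% and 3.91% at day 4, and by limma-voom 6.43% and 6.86%, 10.3% and 13.6%, and 10.9% and 13.0%. Vim, the intermediate filament of mesenchymal cells, had 1672 ± 64.9 in WT and 3499 ± 226 in KO at day 2 and 20061 ± 1205 and 4873 ± 1019 at day 4.

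In bulk samples, fewer cells of a type and less RNA per cell cannot be told apart. The 10 mESC markers were all detected at day 0, with 73725 ± 7.90 summed normalized counts in WT and 81912 ± 1489 in KO at day 0, led by Esrrb in 5 of 6 libraries. At day 2 they were 19540 ± 1050 and 29609 ± 1764, and 8 of the 10 were called higher in KO and Pou5f1 lower (8886 ± 705 in WT and 5266 ± 618 in KO), with a median VST difference of 1.40. At day 4 they were 9444 ± 24.5 and 22315 ± 1033, and 9 of the 10 markers were higher in KO. Of all genes, 4.01% were called higher and 2.37% lower at day 2, and 3.67% and 3.91% at day 4. The 6 primitive streak markers summed to 30699 ± 443 in WT at day 4, led by T, and to 606 ± 289 in KO, led by Eomes, with all 6 called lower in KO, and Msgn1 at 0 in all 4 KO libraries. The higher Fosb and Egr1 of KO at day 2 thus stood beside differences in the mESC markers, and the lower Fosl2, Junb and Atf3 at day 4 beside differences in both marker lists, and the part of these in either was not tested.

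Fibroblast markers were examined because the day 0 cells grew on feeders. The 9 markers summed to 3266 ± 75.0 normalized counts in WT and 5198 ± 432 in KO at day 0, to 1223 ± 95.4 and 742 ± 101 at day 2, and to 2901 ± 87.7 and 1120 ± 370 at day 4, led by Col1a1 in all 18 libraries. At day 0, Col1a1, Col1a2 and Col3a1 were called higher in KO and Pdgfrb lower, and Lum was at 0 in all 6 libraries. Pdgfrb and Col1a1 were lower in KO at day 4 and Thy1 at day 2. With limma-voom 4 of the 9 were higher and 1 lower at day 0, 2 were lower at day 2 and 5 at day 4. The lower Fosl2, Junb and Atf3 of KO at day 4 stood beside these lower fibroblast markers, whose part in them was not tested. The higher Junb of KO at day 0 stood beside higher Col1a1, Col1a2 and Col3a1 and lower Pdgfrb, and their part in it was not tested. Of 8 heat shock genes, 0 were higher on any day and 1 was lower on each (Hspb1 at days 0 and 4 and Hspe1 at day 2), and Hsp90aa1 was the most abundant in all libraries. The list summed to 115847 ± 8216 in WT and 114033 ± 8240 in KO at day 0, to 111146 ± 1892 and 117594 ± 6482 at day 2, and to 80887 ± 4380 and 99712 ± 7531 at day 4, when the KO libraries (90525 to 106899) lay above both WT libraries (77790 and 83984). The part of this in the differences at day 4 was not tested. Of 9 markers of extraembryonic endoderm, led by Lamb1 in all 18 libraries, 1 was higher at day 0. At days 2 and 4, 1 and 2 were lower. With limma-voom 1 was higher and 4 lower at day 0, and 4 and 5 were lower at days 2 and 4. Of 7 trophoblast markers, 0 were called at day 0, 1 higher and 1 lower at day 2, and 1 and 2 at day 4. With limma-voom 1 was higher and 1 lower at days 0 and 2, and 2 and 3 at day 4. Of all genes, limma called 1.73% higher and 0.879% lower at day 0. These shares were 4.01% and 2.37% at day 2, and 3.67% and 3.91% at day 4. By limma-voom they were 6.43% and 6.86%, 10.3% and 13.6%, and 10.9% and 13.0%.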

How the data were processed

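RNA-seq libraries (n = 18) were prepared from WT, KO-1 and KO-2 cells at day 0, 2 and 4, with 2 biological replicates each. The authors trimmed reads with Trim Galore 0.6.7, aligned them to mm39 with STAR 2.7.11a, counted exonic fragments with featureCounts 2.0.6, dropped genes averaging fewer than 1 count, and deposited VST values from DESeq2 1.42.0, on a log2 scale. The library kit named in the labels does not mark strand.

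The VST was inverted from its floor of 8.36 (a count of 0), which gave whole counts (within 0.05) for 100% of values. Between 72.5% and 77.5% of counts from 1 to 20 were even in each library, for a reason not tested. VST values were tested in R 4.3.3 with limma 3.58.1 (trended prior variance, 6 groups in 1 fit, Benjamini-Hochberg adjustment over 20703 genes, calls at adjusted p below 0.01 and an absolute difference above 0.58), and recovered counts with limma-voom, using the size factors of the authors. Clones were compared in a fit of 9 groups. The inversion, limma on VST values and limma-voom were tested on simulated data for KO versus WT at day 4, and the other steps were not. Figures were drawn with matplotlib 3.10.9 in Python 3.11.15. Exon lengths and overlaps were taken from the GENCODE M21 annotation (GRCm38), which is not the mm39 build used for counting.

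The genes and gene lists were chosen with earlier results of these data known, and no list is independent evidence. The genes named are the 10 genes, Nsd1, at most the 3 largest rises and falls of each list and day among called genes (or, with none called, the most changed gene), the most abundant gene of each marker list, and the 2 genes most like each member with a mean of at least 50 counts. Genes overlapping a member, and other listed genes, were named after their values were seen. Replicates of 1 number were not described as cultured together, and the correlation of their deviations over 10352 genes ranged from −0.61 to 0.64 in 36 pairs of groups, so they were not paired. The chi-square per gene between the replicates of a group was 2.22 to 12.6. Because most low counts were even, its value under sampling noise alone is not known, so it does not decide whether replicates agreed within that noise.

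Alternatives were limma-voom, log2(normalized count + 1), a filter at the 25th percentile, quantile normalization, median centring, no trend, other thresholds, each day alone, each clone alone, clones averaged, a replicate block, and each library left out.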

Additional observations from a re-analysis of the deposited data

Results flagged for a closer look

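In 6 tests, the difference between KO and WT at a later day was not the difference at day 0, as tested by the interaction in limma with Benjamini-Hochberg adjustment. From day 0 to day 2 it shifted upward by 0.84 in VST values for Fos (adjusted p = 1.02e-07), by 1.16 for Fosb (adjusted p = 5.72e-07) and by 0.94 for Egr1 (adjusted p = 4.96e-06). In these 3 genes the shift went with a smaller decline in KO than in WT, 11.9-fold against 56.2-fold for Fos, 4.46-fold against 79.6-fold for Fosb and 7.41-fold against 28.2-fold for Egr1. From day 0 to day 4 the shift was −0.98 for Fosl2 (adjusted p = 2.03e-09), −1.57 for Junb (adjusted p = 1.06e-09) and −1.33 for Atf3 (adjusted p = 4.66e-10). For Atf3 the mean of WT at day 4 was 10.6 times its mean at day 0, and that of KO 1.79 times. All comparisons against day 0 share the same 6 libraries. In 30 sets of 4 KO libraries (10 genes at 3 days), 0 held a library that stood apart from the rest by the test of Dixon.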

How the results depend on the processing

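Calls depended mainly on the scale and the thresholds. With limma-voom the members called in KO versus WT numbered 5, 6 and 7 at day 0, 2 and 4 (1, 2 and 3 in VST values), against 13.3%, 23.9% and 23.9% of all genes. With log2(normalized count + 1) they numbered 4, 6 and 7 (2667, 5176 and 4602 of all 20703 genes). At an adjusted p of 0.05 without a minimum they numbered 7, 7 and 7 (29.7%, 45.96% and 37.2% of all genes). Quantile normalization gave 2 at day 0 (2.55% of all genes). It gave 4 for KO day 2 versus day 0 (5 in VST values), against 3.17% of all genes. For the interaction at day 4 it gave 4 (3 in VST values), against 6.90%. With KO-2 alone, Egr1 was called at day 2 and Fosb was not. For WT day 4 versus day 2 (5), log2(normalized count + 1) and the looser threshold gave 8 each (24.98% and 42.3% of all genes). For KO day 4 versus day 2 (1), limma-voom gave 6 (10.3%), log2(normalized count + 1) 7 (9.36%) and the looser threshold 8 (23.7%). The interaction at day 2 (3) gave 5 at the looser threshold (21.7%), and that at day 4 (3) gave 5 at it (26.95%) and 5 with limma-voom (14.9%). Between clones at day 2 (0), limma-voom gave 1 (0.232%) and the looser threshold 2 (Fosb and Egr1, 0.966%). The cause was not tested.

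Leaving out 1 library at a time gave 1 to 2 members at day 0 (Jun added without KO-2 day 0 replicate 2), 2 to 2 at day 2, 3 to 4 at day 4 (Jun added without WT or KO-1 day 4 replicate 2), 5 to 5 for WT day 2 versus day 0, 5 to 6 for WT day 4 versus day 2 (Jun added without WT day 2 replicate 1 or WT day 4 replicate 2), and 4 to 5 for KO day 2 versus day 0 (Fosl2 lost without either KO-2 day 0 library or KO-1 day 2 replicate 1). It gave 1 to 2 for KO day 4 versus day 2, with Junb added without KO-2 day 2 replicate 1 or either KO-1 day 4 replicate, 3 to 3 for both interactions, and 0 to 0 between clones. With the replicate block, which the labels do not tie to a shared culture, the counts were 1, 2 and 3 for KO versus WT at day 0, 2 and 4, and it changed no other count either. With all libraries and no block, 2.61%, 6.38% and 7.58% of all genes were called for KO versus WT at day 0, 2 and 4. For day 2 versus day 0 and day 4 versus day 2 the shares were 6.68% and 8.76% in WT and 3.20% and 1.49% in KO. For the interactions at day 2 and 4 they were 3.19% and 6.93%.

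The other alternatives gave 360 log2 differences between KO and WT at day 0, 2 and 4, the time steps and interactions not being among them. Of the 360, 2 were no longer called (Fosb at day 2 with KO-2 alone and Junb at day 0 with KO-1 alone) and 40 were newly called. Another 5 reversed, all in genes without a call. For Fosl1 these were at day 2 with limma-voom (−0.0368) and with KO-2 alone (−0.00655), and at day 4 with KO-1 alone (−0.0285). For Ier2 they were at day 2 with quantile normalization (−0.0303) and at day 4 with KO-2 alone (0.0594). Of 540 differences between KO and WT with a library left out, 4 reversed, within −0.039 to 0.045 for Fosl1 at day 2 and −0.076 to 0.038 for Ier2 at day 4. With 2 WT libraries a day and 8 and 12 counts of Fosb in WT at day 2, depth limits the size of that ratio.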
